A study of Homo sapiens with 12 samples.

Results

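The activin and inhibin axis is described here by 8 genes: the subunit genes INHBA, INHBB and INHA, the secreted antagonists FST and FSTL3, and the receptors ACVR1B, ACVR2A and ACVR2B. They were taken by symbol from a table of 56269 genes, and all 8 were found in it. A filter on low counts kept 6 of the 8 among 16069 genes tested, and INHA and INHBB did not pass it. The cells were HEYA8, an established ovarian cancer line, kept in growth medium with serum under a label of resting state. All 4 groups of 3 libraries carried a lentiviral vector with a dTomato marker, stably expressed, and infected cells were sorted by dTomato. The control vector carried no betaglycan. The other groups expressed betaglycan, the co-receptor that binds TGF-β and inhibin and is encoded by TGFBR3, with 1 or both of the serines that carry its glycosaminoglycan chains changed to alanine. S534A (CS-BG) and S545A (HS-BG) each carried the single mutation they are named for, and ∆GAG-BG carried both. No group with unmutated betaglycan was among the 12 libraries, so each mutant was set against the control vector and against the other mutants.

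Activins are dimers of inhibin β subunits, encoded by INHBA (βA) and INHBB (βB), and inhibins pair a β subunit with the α subunit encoded by INHA. Activin binds a type II receptor, ActRIIA (ACVR2A) or ActRIIB (ACVR2B), which brings in the type I receptor ALK4 (ACVR1B) and leads to phosphorylation of SMAD2 and SMAD3. Inhibin opposes activin by occupying the type II receptors, with betaglycan as its co-receptor, and follistatin (FST) and the follistatin-like protein FSTL3 bind activin outside the cell. In the ovary the axis is best known from granulosa cells, and activin A is also secreted by many carcinoma cells.

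The genes of the β subunits lay at opposite ends of the axis in level, and the sequence just before their starts is shown for that reason. Each stretch runs 5′ to 3′ from base 250 to base 51 before the RefSeq start of the gene (GRCh38.p14), on the strand of the gene, with every CG dinucleotide in capitals. That of INHBA is chr7:41703141-41703340 on the minus strand and that of INHBB is chr2:120345886-120346085 on the plus strand. The INHBA stretch lies inside the bounds of the gene as counted, which run from 41667168 to 41705834. The windows of INHA and ACVR2A and 1 of the 2 windows of ACVR1B, described below, also lie inside those of their genes, and that of FST does so in part. The INHBB stretch lies before the counted gene, which starts at 120346143.
INHBA: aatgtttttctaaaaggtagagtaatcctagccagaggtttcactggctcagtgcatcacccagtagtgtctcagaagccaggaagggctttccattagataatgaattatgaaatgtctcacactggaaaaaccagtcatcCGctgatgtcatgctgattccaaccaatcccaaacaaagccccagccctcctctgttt
INHBB: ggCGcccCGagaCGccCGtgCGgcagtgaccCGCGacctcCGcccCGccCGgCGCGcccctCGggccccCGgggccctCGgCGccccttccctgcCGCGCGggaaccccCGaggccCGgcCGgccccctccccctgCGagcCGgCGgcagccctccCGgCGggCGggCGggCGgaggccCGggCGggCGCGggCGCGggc

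The INHBA stretch held 1 CG dinucleotide and 44.5% G and C, and the INHBB stretch held 36 and 89.0%. The median over 35116 RefSeq promoters of this length was 8 CG dinucleotides. Fewer than the 1 of INHBA were found in 8.65% of promoters and more than the 36 of INHBB in 0.493%. ACVR1B, which was well expressed, held 36 before one of its listed starts and 2 before the other, whose window lies inside the gene as counted. The pattern TGANTCA, searched on both strands, is wider than the AP-1 site, as it allows any middle base. It was in the windows of INHA and FST, among 5.27% of all promoters. INHA held TGAGTCA, an AP-1 site, and FST held TGATTCA, which is not the AP-1 consensus. TATAAA was in none of the windows of the 8 genes, against 7.63% of all promoter windows. The windows end 51 bases before the start, so a TATA box nearer the start would not be seen, and no lack of one is shown. The SMAD motif CAGAC was in the windows of INHA and of 1 of the 2 listed starts of ACVR1B (the one inside the gene), among 32.4% of all promoters. These matches describe the letters of these windows. No binding or methylation was measured here.

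Levels are CPM, counts relative to the TMM-scaled library total, and levels of different genes are compared only per length, as RPKM on the same scaling. Total counts ran from 16410001 to 29504297 per library. TGFBR3 went against the labels in several libraries and comes before the results. In the control vector it was at 15.9 CPM in library 1 and at 259 in libraries 2 and 3. In ∆GAG-BG it was at 260 CPM in library 1, 20.3 in library 2 and 21.4 in library 3. So 2 of 3 libraries labelled control vector had more TGFBR3 than 2 of 3 labelled ∆GAG-BG, while S534A (413 to 476 CPM) and S545A (520 to 574 CPM) were high in every library. Counts do not tell the construct from the cell's own transcript. The labels were kept, and whether libraries were exchanged between these groups was not tested. Comparisons with the control vector or ∆GAG-BG were also fitted without libraries 2 and 3 of those groups and without library 1 of both, choices made after seeing the data, and the values that moved are given beside the results. Leaving out library 1 keeps, in these groups, only the libraries whose TGFBR3 goes against the label. Libraries 2 and 3 also lay close together: their counts differed by 1.40 to 1.99 times the sampling variance (chi-square per degree of freedom) in S545A, the control vector and ∆GAG-BG, against 17.4 to 78.6 for the other pairs within groups. Nothing in the labels says that libraries came from separate cultures, so p-values measure the spread between libraries, which may be technical. PAX8 (193 to 295 CPM) and the keratins KRT7, KRT8 and KRT18 (451 to 1140 CPM) were high in all libraries. Of the other 6 of the 10 epithelial and ovarian carcinoma markers, MSLN (6.90 to 18.0 CPM) and WT1 (3.42 to 8.38 CPM) were low, EPCAM and KRT19 did not pass 1.77 CPM, and MUC16 and CDH1 were at 0. Of 6 granulosa cell markers, FOXL2 and AMH passed the filter, FSHR and NR5A1 were at 0 in every library, and CYP19A1 and STAR had at most 3 counts. The 4 leukocyte markers summed to at most 0.136 CPM. Markers of fibroblasts (DCN and LUM at 0) summed to 8.81 to 21.5 CPM. Endothelial markers summed to 171 to 445 CPM, nearly all of it CDH5. In bulk RNA, fewer cells with a transcript and less transcript per cell cannot be told apart.

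Among the subunits, INHBA was by far the highest. Its mean over the 12 libraries was 27.5 RPKM ± 6.23 (SD, n = 12), above 90.2% of the genes tested, from 3262 to 10881 counts per library. INHA was at 0.112 RPKM ± 0.0473, with 2 to 8 counts per library, and INHBB at 0.0178 RPKM ± 0.0153, with 0 to 3 counts. Per library the INHBB counts were 2, 3 and 0 in the control vector, 2, 2 and 1 in ∆GAG-BG, 0, 0 and 1 in S534A, and 3, 0 and 2 in S545A. No INHBB count exceeded 3, the limit that a count of 0 allows, so no difference in INHBB was detectable at this depth. The INHA counts were 3, 5 and 8 in the control vector, 2, 6 and 3 in ∆GAG-BG, 4, 7 and 4 in S534A, and 2, 6 and 6 in S545A. The groups overlapped, and these 56 counts in all did not pass the filter.

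**Figure D1:**
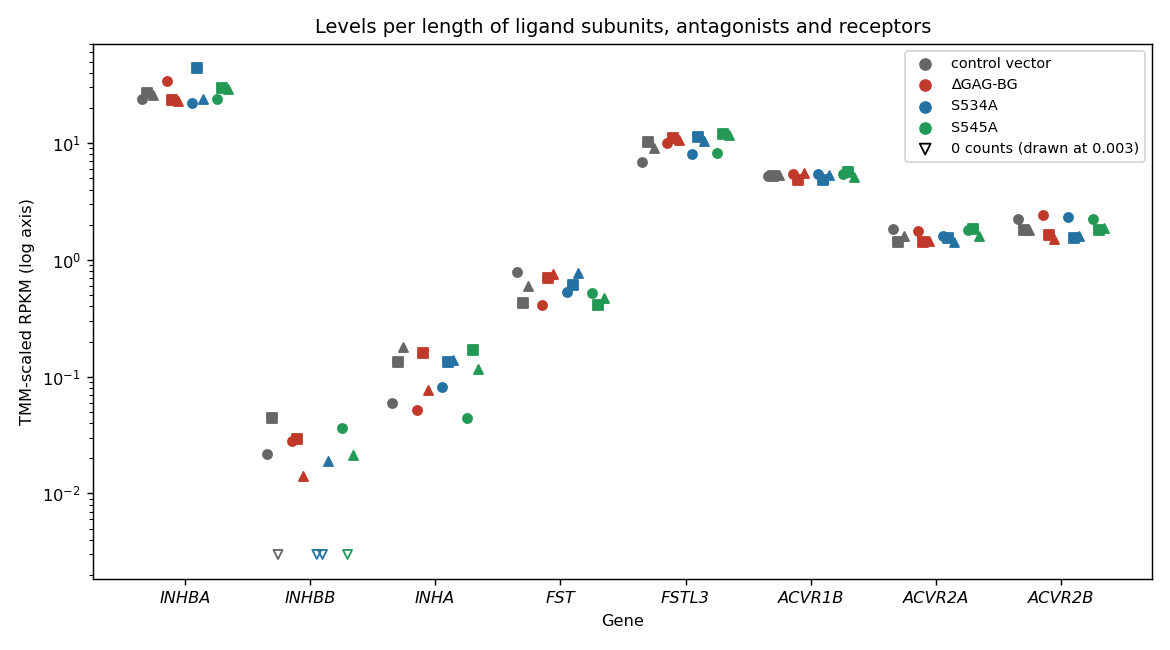
Level per length (TMM-scaled RPKM, log axis) of each of the 8 genes, with 1 point per library, colored by group and shaped by library number as circle, square and triangle for 1, 2 and 3. INHBA lies above 20 RPKM in every library, and INHBB lies below 0.05, with open triangles for libraries at 0 counts.

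INHBA, which encodes the subunit of activin A, was at 199, 225 and 216 CPM in libraries 1, 2 and 3 of the control vector. It was at 283, 195 and 189 CPM in ∆GAG-BG, 182, 363 and 198 in S534A, and 199, 248 and 241 in S545A. All groups overlapped, and the highest value, in S534A library 2, stood apart from the other 2 libraries of its group. The INHBA level of S534A was higher than that of the control vector by 0.22 ± 0.24 (log2 fold change ± SE, edgeR's quasi-likelihood test, adjusted p = 0.871). It was at -0.17 when S534A library 2 was left out. Against ∆GAG-BG the S534A difference went from 0.16 to -0.23 without that library, and S545A against S534A went from -0.11 to 0.28. INHBA of S545A against the control vector was 0.11 ± 0.24 (edgeR, adjusted p = 0.9999). INHBA of ∆GAG-BG against the control vector was at 0.060 ± 0.24, at 0.50 without libraries 2 and 3 of both groups and at -0.21 without library 1 of both.

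Follistatin was scarce. FST was at 0.584 RPKM ± 0.144 (n = 12), with 25 to 68 counts per library. Its CPM in libraries 1, 2 and 3 were 2.35, 1.27 and 1.76 in the control vector, 1.22, 2.09 and 2.26 in ∆GAG-BG, 1.56, 1.80 and 2.31 in S534A, and 1.55, 1.22 and 1.40 in S545A. Every S545A library lay below every S534A library, and the other pairs of groups overlapped. The log2 fold change of S545A against S534A was -0.42 ± 0.28 (edgeR, unadjusted p = 0.168, adjusted p = 0.702). The exact permutation test gave p = 0.1, the smallest that 3 against 3 can give. Against ∆GAG-BG the FST difference of S545A was -0.41 ± 0.29 (edgeR, adjusted p = 1) and against the control vector -0.37 ± 0.28 (edgeR, adjusted p = 0.9999).

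The FST differences turned with the choice of control vector and ∆GAG-BG libraries. Without library 1 of ∆GAG-BG and of the control vector, FST in S545A against ∆GAG-BG was at -0.63 (edgeR, unadjusted p = 0.0232, adjusted p = 0.721), where 6.24% of genes had an unadjusted p under 0.05. Without libraries 2 and 3 of those groups the same difference was 0.19 (unadjusted p = 0.603 by edgeR), the opposite direction. In that reduced fit FST in ∆GAG-BG against the control vector was at -0.96 (edgeR, unadjusted p = 0.0449, adjusted p = 0.54, with 9.07% of genes under 0.05) and FST in S545A against the control vector at -0.77 (edgeR, unadjusted p = 0.0366, adjusted p = 0.887, with 3.49% of genes under 0.05). The lone library of each reduced group was assumed to vary like the others. The part of TGFBR3 in these shifts was not tested.

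FSTL3 was the main antagonist by level, at 9.98 RPKM ± 1.60 (n = 12), and its level per length was 8.71 to 29.3 times that of FST within a library. Its CPM in libraries 1, 2 and 3 were 21.2, 31.4 and 28.1 in the control vector and 30.5, 33.9 and 32.3 in ∆GAG-BG. They were 24.5, 34.6 and 32.0 in S534A and 25.4, 37.0 and 36.3 in S545A. Library 1 was the lowest of each group, and all groups overlapped. FSTL3 was higher in S545A than in the control vector by a log2 fold change of 0.29 ± 0.18 (edgeR, unadjusted p = 0.126, adjusted p = 0.9999), and higher in each of the 3 same-numbered pairs. In ∆GAG-BG against the control vector it was at 0.26 ± 0.18 (edgeR, unadjusted p = 0.166, adjusted p = 0.9999), and also higher at each of the 3 library numbers. Without libraries 2 and 3 of ∆GAG-BG and the control vector these differences were 0.62 and 0.51, and without library 1 of both groups they were 0.15 and 0.15, none with an adjusted p under 0.05.

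Same-numbered libraries of S545A and the control vector deviated from their group means together, so that this comparison was also fitted with the replicate number as a block. The labels give no pairs, and this pairing was read from the same values that the fits test. The p-values of the fits with only these groups are therefore not independent of that choice. With the block and all 4 groups in the model, FSTL3 was at 0.29 (edgeR, unadjusted p = 0.0155, adjusted p = 0.9999), where 1.23% of genes had an unadjusted p under 0.05. In that model ∆GAG-BG against the control vector was at 0.28 (edgeR, unadjusted p = 0.0181, adjusted p = 0.9999, with 1.10% of genes under 0.05). The deviations of same-numbered libraries of these groups correlated at -0.16, -0.13 and -0.10 for numbers 1, 2 and 3. The numbers were therefore not taken as pairs for ∆GAG-BG against the control vector. With the block and only S545A and the control vector, a fit added after seeing the data, FSTL3 rose by 0.29 at an adjusted p of 0.0132 (edgeR), among 2.54% of 15616 genes called. In that fit 17.5% of genes had an unadjusted p under 0.05, and INHBA was among them (0.098, edgeR, unadjusted p = 0.0192, adjusted p = 0.181). Without pair 2 or pair 3 the FSTL3 call was lost (edgeR, adjusted p = 0.171 and 0.215), in fits that called 0.145% and 0.271% of genes. Without pair 1 FSTL3 had an adjusted p of 2.8e-06 and INHBA one of 2.3e-08 (edgeR), in a fit that called 12.3% of genes. The pairs left in that last fit were the libraries 2 and 3 that lay close together, and both of these control vector libraries held TGFBR3 at 259 CPM.

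The ratio of INHBA to the summed antagonists FST and FSTL3, per length, lay between 1.99 and 3.68 in all 12 libraries. It was lowest in ∆GAG-BG libraries 2 and 3 (1.99 and 2.01) and highest in S534A library 2 (3.68) and ∆GAG-BG library 1 (3.30). Transcript ratios say nothing of the amounts of secreted protein.

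**Figure D2:**
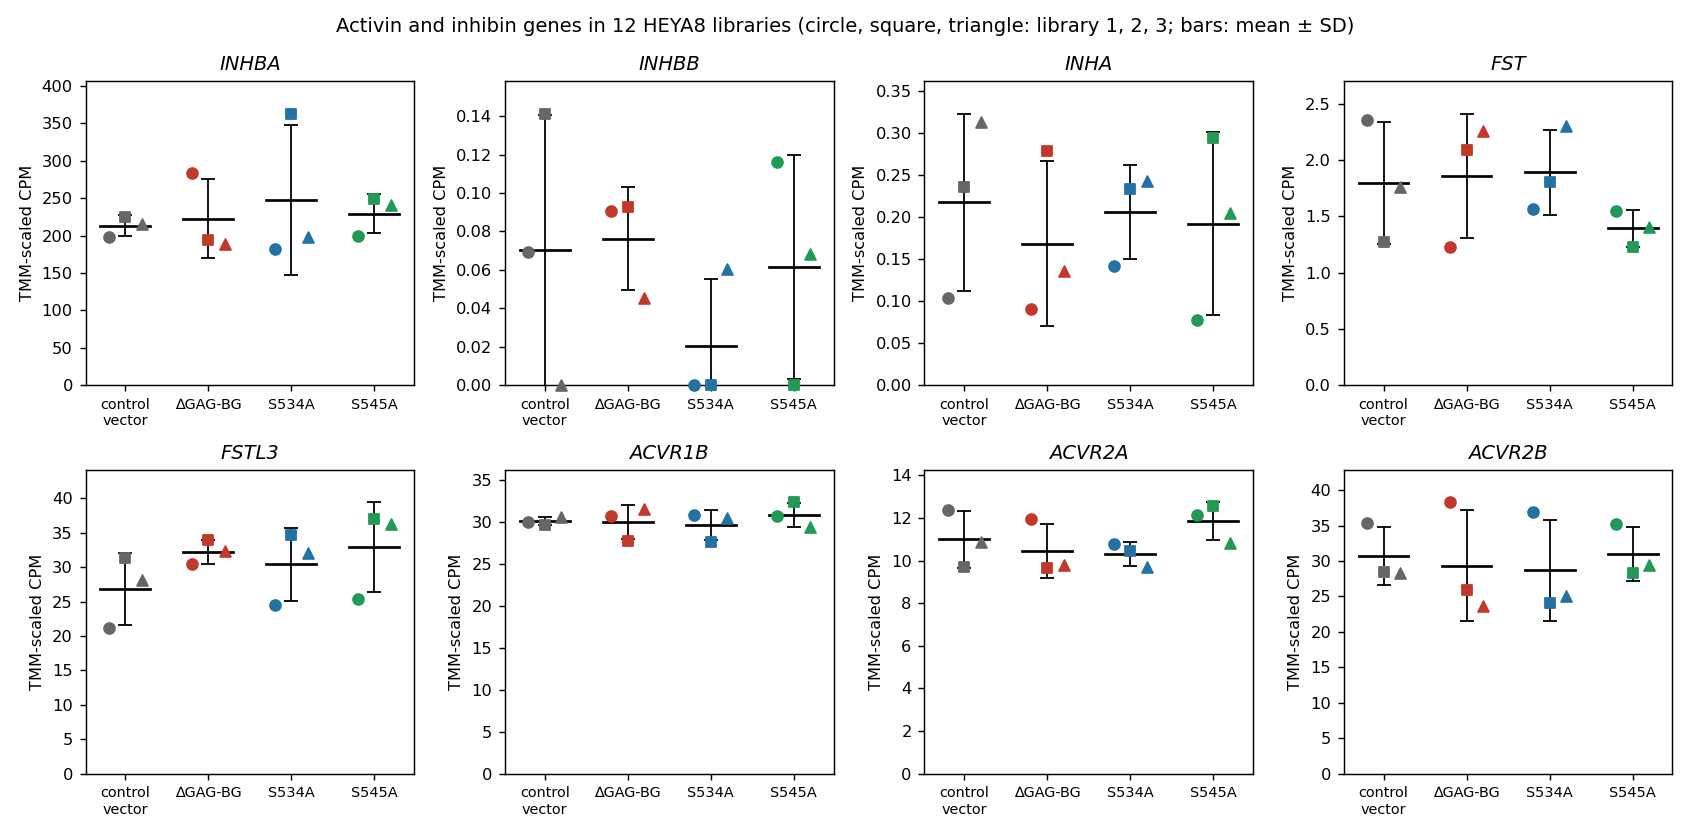
TMM-scaled CPM of each gene in the 4 groups, on axes that start at 0. Circles, squares and triangles are libraries 1, 2 and 3, and black bars give the mean ± SD of the 3 libraries. INHBA stands out in S534A library 2 (363 CPM), and library 1 is the highest for ACVR2B and the lowest for FSTL3 in every group.

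The type I receptor gene ACVR1B was among the steadiest genes measured. It was at 5.29 RPKM ± 0.246 (n = 12), and its CPM were 30.0, 29.6 and 30.5 in the control vector, 30.7, 27.6 and 31.5 in ∆GAG-BG, 30.8, 27.5 and 30.4 in S534A, and 30.7, 32.3 and 29.4 in S545A. Its coefficient of variation over the 12 libraries was 4.66%, against a median of 14.6% over all genes tested, and 3.26% of those genes had a lower one. The 6 log2 fold changes of ACVR1B lay between -0.024 and 0.057, and the 95% confidence intervals of all 6 stayed between -0.21 and 0.24.

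ACVR2A, the type II receptor ActRIIA, was at 1.61 RPKM ± 0.162 (n = 12). Its CPM were 12.4, 9.71 and 10.9 in the control vector, 11.9, 9.66 and 9.80 in ∆GAG-BG, 10.8, 10.4 and 9.71 in S534A, and 12.1, 12.5 and 10.8 in S545A. Every S545A library lay above every S534A library, by a margin of less than 0.1 CPM between the nearest, with a log2 fold change of 0.20 ± 0.13 (edgeR, adjusted p = 0.702; exact permutation p = 0.1). Scaled by library size only, without the TMM factors, these groups overlapped. Exons of ACVR2A overlap those of ORC4 and AC009480.3 on the other strand over 540 bases, and whether reads were counted by strand is not given in the sources used here. Without library 1 of ∆GAG-BG and of the control vector, ACVR2A in S545A against ∆GAG-BG was at 0.29 (edgeR, unadjusted p = 0.0330, adjusted p = 0.753). Without libraries 2 and 3 of those groups it was at -0.015.

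ACVR2B, the type II receptor ActRIIB, followed the library number. In library 1 it was at 35.4 CPM in the control vector, 38.3 in ∆GAG-BG, 36.9 in S534A and 35.3 in S545A. In libraries 2 and 3 it was at 28.4 and 28.3 CPM in the control vector, 26.0 and 23.7 in ∆GAG-BG, 24.1 and 25.0 in S534A, and 28.3 and 29.4 in S545A. All 4 libraries numbered 1 lay above the other 8, which was so, above or below, for 3.74% of the genes tested. None of the other 5 tested genes of the axis separated in this way. The labels give the number no batch or day. Between groups the ACVR2B log2 fold changes lay between -0.099 and 0.11, with standard errors of 0.20. Per length ACVR2B was at 0.969 to 1.47 times ACVR2A, and ACVR1B at 1.28 to 1.88 times the sum of both.

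Per length the order of means was INHBA, FSTL3, ACVR1B, ACVR2B, ACVR2A, FST, INHA and INHBB. The ranges of the 12 libraries overlapped for the neighbors ACVR2B (1.51 to 2.43 RPKM) and ACVR2A (1.43 to 1.85 RPKM), and did not overlap for any other neighbors in this order. Those of INHA and INHBB nearly met, at 0.0442 RPKM from 2 counts and 0.0441 RPKM from 3 counts. Such counts are within the limit of 3 that a count of 0 allows, so this separation is not firm.

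The comparisons asked whether the axis differed between cells with the 3 mutants and the control vector, and among the mutants. Loss of a chain from unmutated betaglycan could not be tested, as no such group was present. At an adjusted p under 0.05 (edgeR, Benjamini-Hochberg over 16069 genes) the comparisons called 0 of the 6 tested genes, and 0% of all genes, in each of the 6 comparisons of 2 groups. In the test across the 4 groups 0 of 6 were called, against 0.00622% of all genes. DESeq2, run without that filter, also called 0 of the 8 at an adjusted p under 0.05 in each comparison. It called 0.0148% of 33890 genes in S534A against ∆GAG-BG, 0.00885% in S534A against the control vector, 0.00295% in S545A against S534A, 0.00885% across the 4 groups and 0% in the rest. At an unadjusted p under 0.05 edgeR called 0 of 6 in every comparison. The share of all genes at that level was 2.99% for S534A against ∆GAG-BG, 1.10% for S545A against ∆GAG-BG and 0.871% for ∆GAG-BG against the control vector. It was 3.45% for S534A against the control vector, 1.05% for S545A against the control vector, 4.78% for S545A against S534A and 1.55% across the 4 groups. Groups without overlap were found for FST and ACVR2A in S545A against S534A, where 10.1% of all genes did not overlap. In the other comparisons 0 of 6 separated. Among all genes 5.66% separated S534A from ∆GAG-BG, 5.05% separated S545A from ∆GAG-BG and 4.87% separated ∆GAG-BG from the control vector. The share was 7.65% in S534A against the control vector and 8.82% in S545A against the control vector. A p that misses the threshold does not show equal levels: the 95% intervals reached 0.74 for INHBA and -1.04 for FST on the log2 scale.

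**Figure D3:**
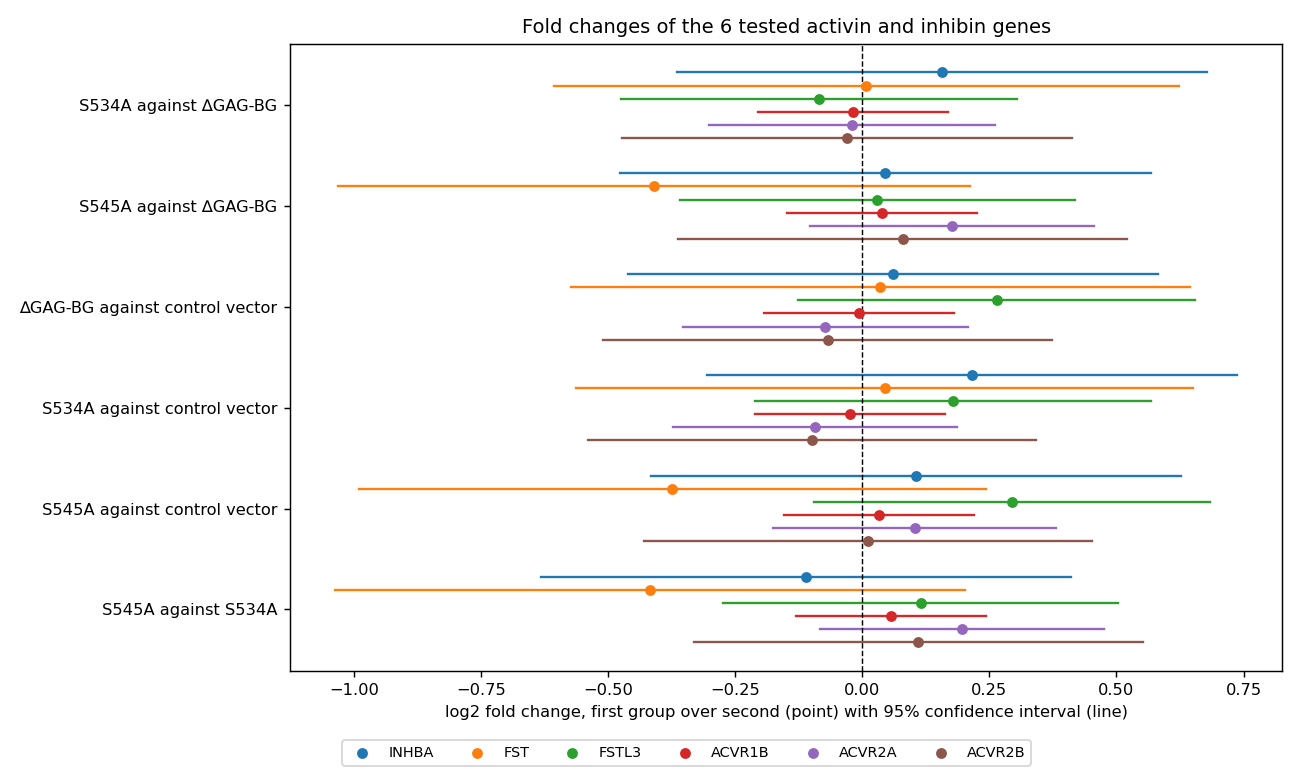
Log2 fold change (point) and 95% confidence interval (line) of the 6 tested genes in each of 6 comparisons, first group over second, from edgeR with all 4 groups in the model. Every interval crosses 0 (dashed line), and those of ACVR1B are the narrowest and those of FST the widest.

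Of 42 further genes of the pathway, 26 passed the filter. These were 2 of 7 ligands, 4 of 7 receptors or co-receptors, 0 of 5 antagonists, 3 of 3 convertases, 12 of 13 transducers or regulators and 5 of 7 responsive genes. None had an adjusted p under 0.05 in any comparison by edgeR or limma-voom, or by DESeq2 where it gave a p. DESeq2 gave TGFBR3 no p in S534A or S545A against ∆GAG-BG, or in S545A against the control vector. The median log2 fold changes of the 26 lay between -0.016 and 0.038, beside -0.0066 to 0.0078 over all genes tested. SMAD3, a transducer of activin signals, was at 34.7 RPKM and SMAD2 at 2.21. FURIN, a convertase that cleaves the precursors of TGF-β family ligands, was at 12.8 RPKM. At an unadjusted p under 0.05 edgeR called 2 of the 26 in S545A against ∆GAG-BG, beside 1.10% of all genes, 2 in S534A against the control vector, beside 3.45%, 2 in S545A against S534A, beside 4.78%, and 0 in the other 3 comparisons. In these last 3, DESeq2 had 1 in S534A against ∆GAG-BG, beside 510 of 33890 genes. There limma-voom had 1, beside 512 of 16069 genes, and it had 1 in S545A against the control vector, beside 180 of 16069. Both limma-voom calls were TGFBR3 (limma-voom, unadjusted p = 0.0119 and 0.0410), whose values turn on the libraries described above.

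GSC, a homeobox gene induced by activin in embryos, was at 0.816, 1.21 and 1.13 CPM in libraries 1, 2 and 3 of ∆GAG-BG and at 0.620, 0.637 and 0.513 in S545A. These groups did not overlap, with a log2 fold change of -0.84 ± 0.28 (edgeR, unadjusted p = 0.0114, adjusted p = 1) from 13 to 26 counts per library, and -0.48 (edgeR, unadjusted p = 0.287) without libraries 2 and 3 of ∆GAG-BG and the control vector. Against the control vector GSC in S545A was at -0.59 ± 0.28 (edgeR, unadjusted p = 0.0565). TGFBR3 itself, a member of the same list, differed between S545A and ∆GAG-BG by 2.42 ± 1.02 (edgeR, unadjusted p = 0.0354, adjusted p = 1), and its values turn on the libraries described above. Without library 1 of ∆GAG-BG and of the control vector that difference was 4.70 (edgeR, adjusted p = 3.1e-08), and without libraries 2 and 3 it was 1.05 (edgeR, adjusted p = 0.224). Against the control vector TGFBR3 in S545A was at 1.60 ± 0.99 (edgeR, adjusted p = 0.9999), at 1.06 without library 1 (edgeR, adjusted p = 0.0074) and at 5.06 without libraries 2 and 3 (edgeR, adjusted p = 0.000175). In S534A against ∆GAG-BG it was at 2.16 ± 1.01 (edgeR, adjusted p = 0.890), at 4.43 without library 1 (edgeR, adjusted p = 4.8e-08) and at 0.79 without libraries 2 and 3 (edgeR, adjusted p = 0.136).

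SMAD7 and PMEPA1, both feedback inhibitors induced by SMAD signals, were higher in S534A than in the control vector at an unadjusted p under 0.05, by 0.96 ± 0.40 (edgeR, unadjusted p = 0.0354, adjusted p = 0.871) and 0.91 ± 0.40 (edgeR, unadjusted p = 0.0415, adjusted p = 0.871). Library 2 of S534A carried both differences. SMAD7 was at 6.65, 21.0 and 5.22 CPM in S534A and at 5.32 to 6.41 CPM in the control vector. PMEPA1 was at 23.1, 73.3 and 19.9 CPM in S534A and at 19.8 to 22.4 CPM in the control vector. Without S534A library 2 the differences were 0.065 (edgeR, unadjusted p = 0.679) and 0.053 (edgeR, unadjusted p = 0.757). Without library 1 of ∆GAG-BG and of the control vector they were 0.92 and 0.97, and without libraries 2 and 3 of those groups 1.01 and 0.78, each with an unadjusted p over 0.05. In S545A against S534A, PMEPA1 was at -0.90 ± 0.40 (edgeR, unadjusted p = 0.0426) and at -0.047 without that library. TGIF1, a corepressor of SMAD2 and SMAD3, was at 0.48 ± 0.22 (edgeR, unadjusted p = 0.0492, adjusted p = 0.702) in S545A against S534A and at 0.40 (edgeR, unadjusted p = 0.140) without that library.

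The remaining genes with the smallest p in a comparison were SKI, FURIN and PCSK5. SKI, another SMAD corepressor, was at 0.18 ± 0.086 (edgeR, unadjusted p = 0.0577) in S534A against ∆GAG-BG, and at 0.094 (edgeR, unadjusted p = 0.215) without S534A library 2. The convertases FURIN and PCSK5 were at -0.14 ± 0.084 (edgeR, unadjusted p = 0.121) and -0.25 ± 0.21 (edgeR, unadjusted p = 0.257) in ∆GAG-BG against the control vector. Without libraries 2 and 3 of both groups they were at -0.35 and -0.59, and without library 1 of both at -0.051 and -0.044. PCSK5 was at -0.016 without control vector library 1 alone.

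The library with the highest INHBA was the one with the highest SMAD7 and PMEPA1, S534A library 2. CDKN1A, the cyclin-dependent kinase inhibitor p21 and a responsive gene of the list, was the gene whose log2(CPM + 1) was most like that of INHBA over the 12 libraries (Pearson r = 0.986, and 0.966 without S534A library 2). CDKN1A was at 436 CPM in S534A library 2 and 328 in ∆GAG-BG library 1, the libraries with INHBA at 363 and 283, and at 220 to 301 CPM in the other 10. Next to it stood CTSD, the lysosomal protease cathepsin D (r = 0.972), and SERPINE2, a secreted serine protease inhibitor (r = 0.970). They were picked as the highest of the correlations with all other tested genes, over libraries that share groups and library numbers, and are given as a description.

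The genes most like FST were IP6K1 (r = 0.935), NKX2-1 (0.919) and ERAL1 (0.879), and those most like FSTL3 were RP11-148O21.3 (0.973), FCGRT (0.968) and SRSF11 (0.956). Those most like ACVR2B were NOV (0.950), CDK8 (0.944) and DCP2 (0.943), and those most like ACVR2A were MAPRE3 (0.879), SNHG14 (0.876) and C19orf44 (0.862). Those most like ACVR1B were RP4-781K5.4 (0.884), MRPS31P4 (0.881) and ESRRG (0.854). Within the axis the values most alike were ACVR2A and ACVR2B (r = 0.681), and those most opposed were FSTL3 and ACVR2B (r = -0.670), both over 12 libraries.

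**Figure D4:**
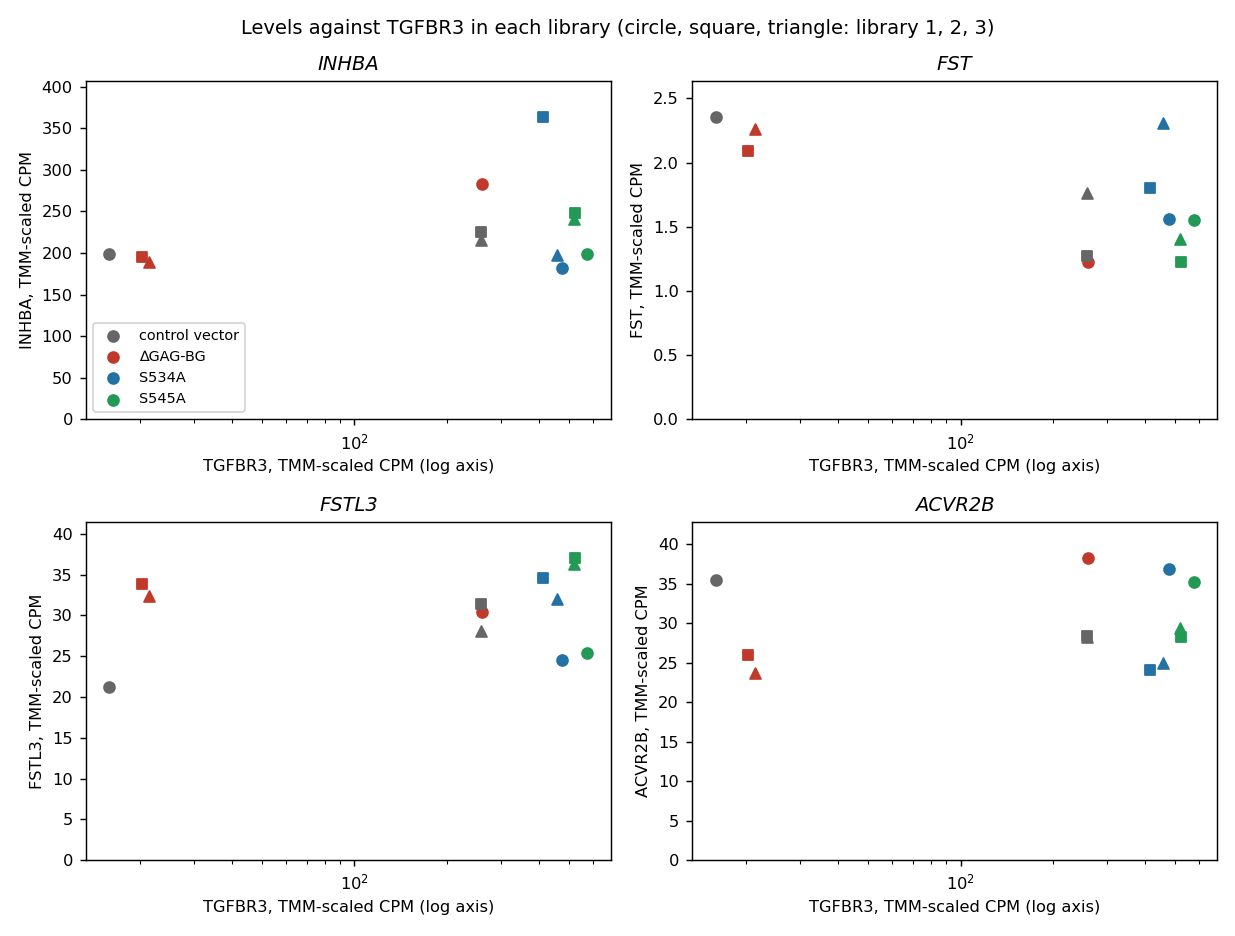
TMM-scaled CPM of INHBA, FST, FSTL3 and ACVR2B against TGFBR3 (log axis) in each of the 12 libraries, colored by group and shaped by library number. The control vector and ∆GAG-BG each have libraries at 21.4 CPM of TGFBR3 or less and at 259 CPM or more, all below those of S534A and S545A. ACVR2B is at 35.3 CPM or more in the libraries numbered 1 (circles) at every TGFBR3 level.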

How the data were processed

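RNA of 12 HEYA8 libraries was sequenced in paired reads after a directional kit. The authors deposited 1 table of raw counts per gene. Per the submitters' processing notes, FastQC, Trim Galore 0.4.5, STAR 2.4, SAMtools 1.2 and featureCounts were used. The notes name the mouse builds mm10 and GRCm38, but the table has human symbols, and its positions for the 8 genes equal those of GENCODE release 29 (GRCh38). INHBA lies on chromosome 7 from 41667168 to 41705834, INHBB, ACVR2A and INHA on chromosome 2 from 120346143 to 120351808, 147844517 to 147930826 and 219569162 to 219575713, and ACVR2B on chromosome 3 from 38453851 to 38493142. FST lies on chromosome 5 from 53480409 to 53487134, ACVR1B on chromosome 12 from 51951667 to 51997078 and FSTL3 on chromosome 19 from 676365 to 683399. RPKM were computed here from the counts and the deposited exon lengths. The study used bioJupies.

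From the counts, genes past filterByExpr (minimum count 10) were scaled by TMM factors, and a robust quasi-likelihood fit was made in edgeR 4.0.16 under R 4.3.3, in 1 model of 4 groups with 8 residual degrees of freedom, with Benjamini-Hochberg adjustment over 16069 genes. The biological coefficient of variation was 0.163. For single values an exact permutation test, two-sided, was added. The script was tested on simulated data. The limit that a count of 0 allows is 3 counts, and it covers counting error only. Genes and lists were chosen with earlier results of these data known. The rule named the 8 genes, TGFBR3, genes of the pathway list with an adjusted p under 0.05 or among the 2 smallest p of a comparison, and the 3 genes most like each tested member. SMAD3, SMAD2 and pathway genes with an unadjusted p under 0.05 were added after their values were seen.

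Alternatives were DESeq2 1.42.0, limma-voom (limma 3.58.1), RLE factors, library size only, no filter, at least 10 counts in every library, a block for the replicate number, only the 2 groups compared, libraries 2 and 3 summed and each library left out. Added after seeing the data were the block with only 2 groups, with each pair left out, and the fits without the libraries named for TGFBR3. The numbers were taken as pairs for S545A against the control vector, on correlations of deviations of 0.73, 0.48 and 0.48 for numbers 1, 2 and 3. These 3 are not independent, as they are deviations from the mean of the same 3 libraries, and no label gives the pairs. In each other comparison at least 1 of the 3 was under 0.1. The library titled S545S-3 was used as S545A, its labelled genotype.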

Additional observations from a re-analysis of the deposited data

How the results depend on the processing

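Of the 6 tested genes, 0 had an adjusted p under 0.05 in any comparison under each alternative except the replicate block with only S545A and the control vector, which called 1 (FSTL3, log2 fold change 0.29), and 0 to 2 with a pair left out, the 2 in a fit that called 12.3% of all genes. That block counted 2 at an unadjusted p under 0.05, beside 17.5% of all genes. The block with all 4 groups counted 1 (FSTL3, 0.29 for S545A and 0.28 for ∆GAG-BG against the control vector). The shares of all genes under 0.05 in these 2 comparisons were 1.23% and 1.10%. At that level, leaving out ∆GAG-BG library 1, a library with TGFBR3 at 260 CPM, gave 2 in S545A against ∆GAG-BG. Leaving out S545A library 1 gave 1 in S545A against the control vector. Any other single library left out gave 0 in these comparisons. These counts have no share of all genes beside them here, so they are not read as a result about the axis. Leaving out a pair under the block gave 1 to 2 in S545A against the control vector. Genes under 0.05 there were 3681 of 15546 without pair 1, 1744 of 15836 without pair 2 and 1732 of 15475 without pair 3. Without library 1 of ∆GAG-BG and of the control vector S545A against ∆GAG-BG had 2, beside 6.24% of all genes. The fit without their libraries 2 and 3 left a lone library in each of those groups, and its log2 fold changes that turned are given below. With library size only, 1 gene (FST) and not 2 separated S545A from S534A, as ACVR2A overlapped.

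Some log2 fold changes changed sign, among them FST in S545A against ∆GAG-BG (-0.41). Leaving out a library in turn, those of S534A against ∆GAG-BG ran from -0.23 to 0.37 (INHBA), -0.22 to 0.17 (FST), -0.19 to 0.049 (FSTL3), -0.071 to 0.034 (ACVR1B), -0.073 to 0.090 (ACVR2A) and -0.26 to 0.21 (ACVR2B). Those of S545A against ∆GAG-BG ran from -0.057 to 0.26 (INHBA), -0.058 to 0.19 (FSTL3), -0.011 to 0.080 (ACVR1B) and -0.051 to 0.32 (ACVR2B). Those of ∆GAG-BG against the control vector ran from -0.16 to 0.16 (INHBA), -0.15 to 0.28 (FST), -0.047 to 0.044 (ACVR1B), -0.19 to 0.022 (ACVR2A) and -0.32 to 0.061 (ACVR2B). Those of S534A against the control vector ran from -0.17 to 0.39 (INHBA), -0.14 to 0.29 (FST), -0.061 to 0.024 (ACVR1B), -0.17 to 0.0025 (ACVR2A) and -0.33 to 0.017 (ACVR2B). Those of S545A against the control vector ran from -0.0035 to 0.066 (ACVR1B) and -0.091 to 0.13 (ACVR2B), and from -0.014 to 0.074 (ACVR1B), -0.021 to 0.17 (ACVR2A) and -0.0077 to 0.032 (ACVR2B) under the replicate block with a pair left out, and those of S545A against S534A from -0.28 to 0.28 (INHBA), -0.013 to 0.28 (FSTL3) and -0.0039 to 0.34 (ACVR2B).

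Without libraries 2 and 3 of ∆GAG-BG and the control vector, S534A against ∆GAG-BG turned to -0.20 (INHBA), S545A against ∆GAG-BG to -0.31 (INHBA), 0.19 (FST), -0.015 (ACVR2A) and -0.31 (ACVR2B), and ∆GAG-BG against the control vector to -0.96 (FST), 0.015 (ACVR1B) and 0.095 (ACVR2B). S534A against the control vector turned to -0.35 (FST) and S545A against the control vector to -0.086 (ACVR2A) and -0.21 (ACVR2B). Without library 1 of both groups, S534A against ∆GAG-BG turned to -0.22 (FST), 0.0034 (ACVR1B), 0.090 (ACVR2A) and 0.21 (ACVR2B), S545A against ∆GAG-BG to -0.0036 (FSTL3), ∆GAG-BG against the control vector to -0.21 (INHBA), and S534A against the control vector to 0.0029 (ACVR2A) and 0.018 (ACVR2B). With libraries 2 and 3 summed, S545A against ∆GAG-BG turned to -0.098 (INHBA) and -0.031 (FSTL3), and FST turned to -0.16 in ∆GAG-BG and -0.052 in S534A, each against the control vector. Library size only gave 0.0058 (ACVR1B) and 0.0064 (ACVR2A) for S534A against ∆GAG-BG, and no filter gave -0.0011 (ACVR2B) for S545A against the control vector. The cause of these changes was not tested. Depth limited INHA and INHBB, which had at most 8 and 3 counts per library.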
